A study of Mus musculus with 8 samples.

Results

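The genes described here encode the kinetochore, the centromere on which it is built and the spindle checkpoint that reads it. They were chosen by name, as 39 symbols. The array's annotation gave 38 of them at least 1 probe set of their own, out of 18193 genes named by such probe sets. The remaining member, Hjurp, which encodes the chaperone that loads CENP-A, lies only in 5 probe sets that are annotated with other symbols too, so no value is given for it. All 38 measured members passed the filter on low signal, which 12177 genes passed in all.

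The study sorted tumour cells with a reporter for PSF1, which is encoded by Gins1 and is a subunit of the GINS complex at replication forks. Lewis lung carcinoma (LLC) and colon26, a mouse colon carcinoma line, each carried a stable transgene in which the mouse PSF1 promoter drives EGFP. Both lines therefore carry the reporter in every group, and no group lacks it. Cells were injected under the skin of mice, and tumours were taken after 4 weeks (LLC) or 2 weeks (colon26), dissociated and sorted by FACS. The 4 groups were LLC EGFP-low, LLC EGFP-high, colon26 EGFP-low and colon26 EGFP-high cells, with 2 arrays each. The labels number them 1 and 2 and call them biological replicates, without saying whether different tumours or animals gave them. The p-values below thus measure only the spread between these arrays, which may be in part technical. The strain of the host mice, and whether each reporter line is 1 clone, are not stated in the labels.

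The kinetochore is a protein assembly that forms on each centromere and holds the chromosome on the ends of spindle microtubules. Its inner layer, the constitutive centromere-associated network (CCAN), sits on nucleosomes that contain the histone variant CENP-A, and its outer layer, the KNL1-MIS12-NDC80 (KMN) network, binds the microtubule. As long as a kinetochore is unattached, checkpoint proteins gathered on it produce an inhibitor of the anaphase promoting complex, and the cell waits in mitosis. Many of these genes are known to be transcribed mostly from late S phase to mitosis in dividing cells.

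Nearly all kinetochore, centromere and checkpoint genes had more signal in EGFP-high than in EGFP-low cells of both tumours. In LLC, 31 of the 38 members rose at a limma adjusted p under 0.05, against 4.98% of all genes tested, and in colon26 25 rose, against 2.18%. Over both lines 33 rose, against 7.47%, and no member fell in any of the 3 comparisons, in which 6.04%, 1.58% and 5.57% of all genes tested fell. The median log2 change of the 38 members was 1.50 in LLC, 1.21 in colon26 and 1.45 for the lines together, beside medians of 0.04, 0.08 and 0.04 over all genes tested. Among the 33 members that rose over both lines the fold ran from 1.47 for Zw10 to 3.98 for Cenpf, and 25 of them rose more than 2-fold. Of the 100 genes with the largest change over both lines 20 were members. In bulk RNA of sorted cells, more cells of a kind (here, cells in or near mitosis) and more RNA in each cell cannot be told apart.

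These calls come from a limma fit with each pair of arrays of 1 line and number as a block. Without that block, on the same values, limma called 0 of the 38 members in either line and 0 over the lines together. Of all genes tested 0 rose in that fit in LLC, in colon26 or over both lines. The members' lowest adjusted p was then 0.167, 0.183 and 0.0702. An unadjusted p under 0.05 was seen for 25, 22 and 29 members, and the share of all genes is not given here. In colon26, 16 members were called with a block shared by the lines and 6 after quantile normalization, in place of 25. Over all genes tested 103 and 43 rose in those fits, in place of 266. The separation is also seen in the array values. Both high arrays lay above both low arrays for 31 members in LLC and 29 in colon26, against 17.4% and 12% of all genes tested. For 28 members this was so in both lines, against 5.82%. The high array was above the low array in all 4 pairs for 33 members, against 21.4%.

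**Figure D1:**
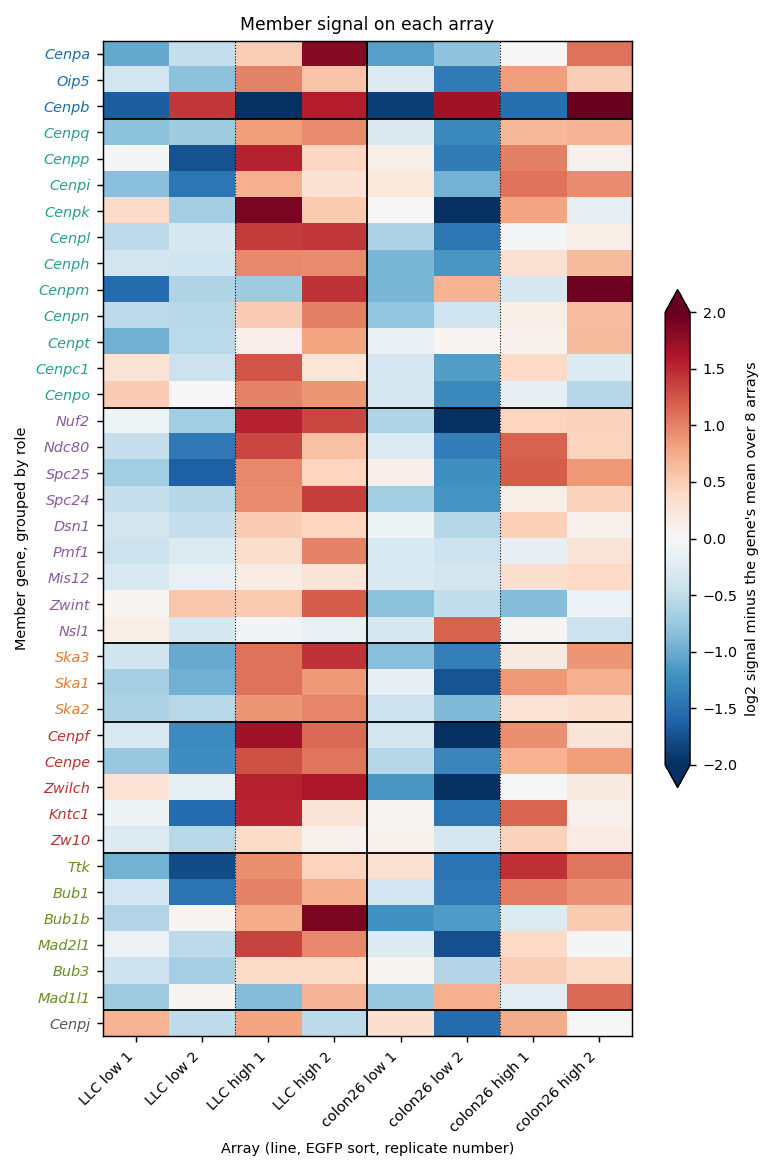
Heat map of the 38 measured members (rows, grouped by role and named in the colour of the role) on the 8 arrays (columns). Colour gives the log2 signal minus the gene's own mean over the arrays, so that red is above and blue below that mean, and colours end at a difference of 2; most rows are blue on the low and red on the high arrays, while the Cenpb row changes with the replicate number.

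Gins1 itself, whose promoter drove the reporter, rose by 1.28 ± 0.21 (SE of the log2 change) in LLC and by 1.07 ± 0.21 in colon26, with limma adjusted p of 0.00334 and 0.0168. The arrays had median log2 signals between 4.76 and 5.02, and 35 to 38 members exceeded 5 on each. Arrays numbered 1 and 2 differed in their control signals. The 3' minus 5' log2 signal of the array's control transcripts was 2.55 ± 0.13 (SD, n = 4) for number 1 and 0.18 ± 0.15 for number 2. Markers of other cells moved with the sort. Of 12 fibroblast genes tested 10 fell in LLC high cells and 5 in colon26 high cells, and of 12 macrophage genes 10 and 11 fell. The summed linear signal of the fibroblast markers was 32250 to 48190 on the LLC low and 10300 to 10850 on the LLC high arrays, and 41190 to 50430 and 34410 to 36460 in colon26. That of 13 macrophage markers was 2561 to 2782 and 867.1 to 971.2 in LLC, and 6988 to 10880 and 1496 to 2285 in colon26. Of 7 endothelial markers tested 0 fell in LLC and 3 in colon26, and none of 5 lymphocyte markers passed the limma test in either line. The part of these cells in the members' changes was not tested.

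The centromere's own chromatin is represented by 3 measured genes, of which 2 rose in each line. Here and below, values are log2 signals, with array 1 before array 2 in each group and low before high in each line. Cenpa encodes the histone variant that marks the centromere. Its log2 signal was 8.51 and 9.04 on the LLC low arrays and 10.02 and 11.35 on the LLC high arrays, against 8.44 and 8.71 and then 9.51 and 10.61 in colon26. Both high arrays lay above both low arrays in each line, and array 2 of each high group was the highest. The change was 1.91 ± 0.25 in LLC and 1.48 ± 0.25 in colon26, which are 3.76-fold and 2.8-fold (limma adjusted p = 0.00115 and 0.00825). Another probe set of Cenpa that passed the filter, with a lower mean signal, had a mean change of 1.09 in LLC and −0.07 in colon26.

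Oip5 encodes MIS18 beta, part of the complex that prepares centromeres for new CENP-A. Its signal was 6.31 and 5.87 on the LLC low arrays and 7.69 and 7.26 on the LLC high arrays, against 6.42 and 5.27 and then 7.52 and 7.18 in colon26. The groups did not overlap in either line, and here array 2 was the lower one in all 4 groups. It rose by 1.39 ± 0.22 in LLC and 1.50 ± 0.22 in colon26 (limma adjusted p = 0.00268 and 0.00357).

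Cenpb encodes a protein that binds a short motif in centromeric satellite repeats. It showed 5.07 and 8.14 on the LLC low arrays and 4.65 and 8.28 on the LLC high arrays, against 4.83 and 8.41 and then 5.22 and 9.16 in colon26. The 4 arrays numbered 2 lay between 8.14 and 9.16 and those numbered 1 between 4.65 and 5.22, and the high and low groups overlapped in both lines. The change was −0.14 ± 0.20 in LLC and 0.57 ± 0.20 in colon26 and did not pass the test in either (limma adjusted p = 0.736 and 0.196). Array numbers moved this gene by 3.56 on average, far more than the sort did.

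The members' promoters were searched for letters known from cell cycle genes. RefSeq's table of promoters (build GRCm38.p6, 250 bases before to 50 after each gene's start) held 38 windows for 34 of the 38 measured members. It lists none for Nsl1, Ska1, Spc24 and Zwilch. The letters, on both strands, were those of the cell cycle genes homology region (CHR, TTTGAA or TTCGAA, of which TTCGAA reads the same on both strands), of the CCAAT box (CCAAT), which the factor NF-Y binds, and of the E2F site (TTTCCCGC, TTTGGCGC, TTTCGCGC or TTTGCCGC). Within 120 bases upstream of the start, Oip5 carries 3 CCAAT boxes, and Ska2, Mis12 and 1 window of Cenpk carry 2. Cenpn carries 1 there with a CHR beside it. Their stretches are not printed. Ttk, Bub1, Cenpa and Spc25 each carry a pair of CCAAT boxes there too, and Cenpq carries 3. Bub3 and Kntc1 carry CCAAT boxes with a CHR beside them. The 120 bases before the start are shown for these genes because they show how the boxes are placed, on the gene's own strand with the matches in capitals; ATTGG is CCAAT and TTCAAA is TTTGAA on the other strand.
Ttk: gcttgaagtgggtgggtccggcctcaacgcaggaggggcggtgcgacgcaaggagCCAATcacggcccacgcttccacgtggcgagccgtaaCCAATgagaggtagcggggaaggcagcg
Bub1: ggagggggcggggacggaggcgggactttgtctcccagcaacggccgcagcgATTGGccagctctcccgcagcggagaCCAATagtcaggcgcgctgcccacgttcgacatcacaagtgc
Cenpa: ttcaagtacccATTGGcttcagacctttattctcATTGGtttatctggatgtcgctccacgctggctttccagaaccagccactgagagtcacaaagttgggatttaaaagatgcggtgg
Spc25: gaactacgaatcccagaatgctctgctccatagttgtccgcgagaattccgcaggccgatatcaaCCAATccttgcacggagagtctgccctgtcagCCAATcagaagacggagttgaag
Cenpq: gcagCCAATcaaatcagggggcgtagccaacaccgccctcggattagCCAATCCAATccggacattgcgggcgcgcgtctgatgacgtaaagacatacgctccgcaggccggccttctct
Kntc1: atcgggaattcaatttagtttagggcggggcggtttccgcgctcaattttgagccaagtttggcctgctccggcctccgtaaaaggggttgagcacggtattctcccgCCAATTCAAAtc
Bub3: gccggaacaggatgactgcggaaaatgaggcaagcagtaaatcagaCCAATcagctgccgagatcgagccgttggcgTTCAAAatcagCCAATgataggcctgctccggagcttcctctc
These stretches lie at chr9:83834569-83834688 (plus strand), chr2:127831860-127831979 (minus strand), chr5:30666766-30666885 (plus strand), chr2:69206214-69206333 (minus strand), chr17:40934575-40934694 (minus strand), chr5:123749606-123749725 (plus strand) and chr7:131560250-131560369 (plus strand), in the order shown. In Kntc1 the last letter of the CCAAT box is the initial letter of the CHR match. Ttk, Bub1, Cenpa and Spc25 also hold a CHR match just after the start, beginning 7, 14, 16 and 24 bases from it, which is not printed.

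A CHR match was found in 17 of the 38 member windows (44.7%), against 19.2% of all 32851 windows in the table. A CCAAT match was found in 25 (65.8%, against 37.4%), both together in 14 (36.8%, against 7.52%) and an E2F match in 4 (10.5%, against 2.26%). By gene, 16 of 34 had a CHR and 22 a CCAAT match, and 13 had both. All 16 members with a CHR match were among the 30 with a window that rose over both lines. As 30 of the 34 genes with a window rose, most of any 16 would be among them. The other risen members with a window had no CHR match. Of these, Nuf2, Cenpp, Mad2l1, Cenpt and Cenpo had no CCAAT or E2F match either. None of the 4 with a window that did not rise (Cenpb, Zwint, Mad1l1 and Cenpj) had a CHR match. A link between match and rise was not tested, and 4 genes are too few to show it. At least 2 CCAAT boxes before the start were present in 1 window for 13 of the 34 genes, beside 10.3% of all windows. After the start, a CHR match was present for 8 of the 34 genes, beside 2.46% of all windows. The table's windows include those of non-coding genes, and its shares were not matched for base composition. Bub3 has overlapping windows from neighbouring starts that show the same matches. A match describes letters, not binding.

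**Figure D2:**
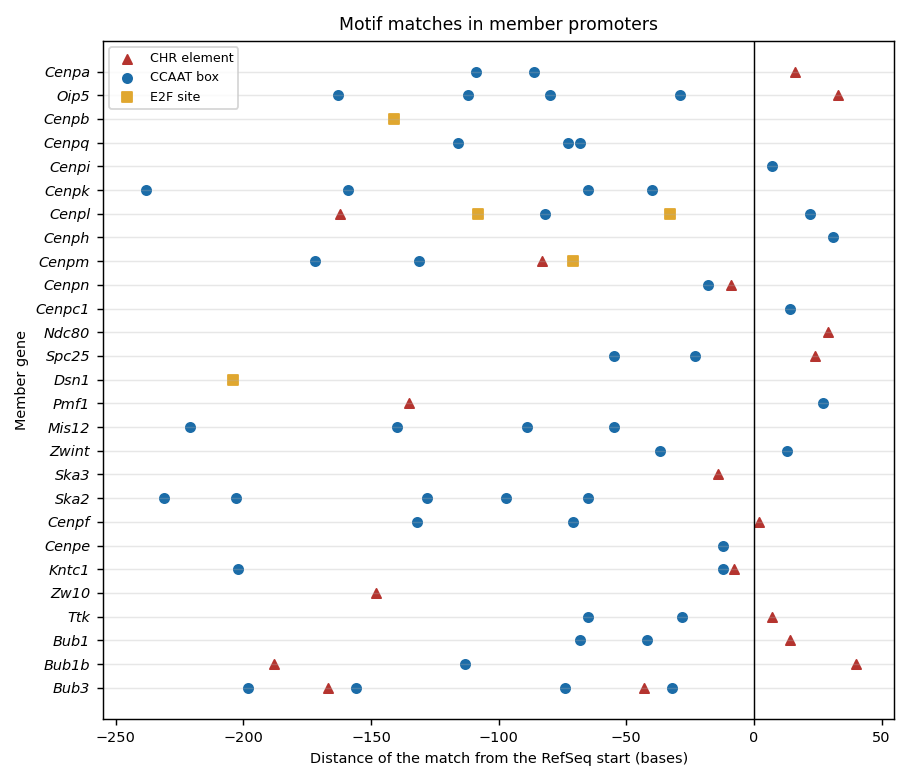
Position of each motif match (horizontal axis, bases from the RefSeq start, which is the vertical line) in the promoter windows of the members that hold at least 1 match (rows). Triangles are CHR, circles CCAAT and squares E2F matches; matches from several windows of 1 gene, as for Bub3 and Cenpk, are drawn on 1 row, and CCAAT matches lie mostly before the start.

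In the CCAN all 11 measured members rose over both lines, 10 in LLC and 8 in colon26. The median change was 1.36 in LLC and 1.08 in colon26. Cenpq and Cenpp, subunits of the CENP-O/P/Q/U/R group of the network, had the largest change over both lines. Cenpq gave 8.11 and 8.21 on the LLC low arrays and 9.77 and 9.87 on the LLC high arrays, against 8.64 and 7.64 and then 9.60 and 9.61 in colon26. The groups did not overlap in either line, and colon26 low array 2 was the lowest of the 8. Its rise was 1.66 ± 0.24 in LLC and 1.47 ± 0.24 in colon26 (limma adjusted p = 0.00171 and 0.00664).

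Cenpp gave 6.99 and 5.26 on the LLC low arrays and 8.55 and 7.42 on the LLC high arrays, against 7.12 and 5.61 and then 8.02 and 7.09 in colon26. Within each number the high array was above the low array, but colon26 high array 2 lay just below colon26 low array 1, so the colon26 groups overlapped. The rise was 1.86 ± 0.22 in LLC and 1.19 ± 0.22 in colon26 (limma adjusted p = 0.000673 and 0.0125).

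Cenpo, a partner of Cenpp and Cenpq in that group, had the smallest change of the network. Its signal was 7.79 and 7.29 on the LLC low arrays and 8.27 and 8.16 on the LLC high arrays, against 6.94 and 5.99 and then 7.11 and 6.71 in colon26. The colon26 groups overlapped, and each LLC array was above each colon26 array of the same sort. The change was 0.68 ± 0.20 in LLC and 0.44 ± 0.20 in colon26, neither past the test alone (limma adjusted p = 0.0602 and 0.314), and 0.56 ± 0.14 over both lines (adjusted p = 0.0292). Its other probe sets that passed the filter, with lower mean signals, had mean changes of 0.67, −0.22 and −0.17 over both lines.

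The other members of the network were Cenpc1, which encodes CENP-C, the protein that ties CENP-A nucleosomes to the outer kinetochore, the CENP-H/I/K/M group (Cenph, Cenpi, Cenpk, Cenpm), the CENP-L/N pair (Cenpl, Cenpn), which contacts CENP-A nucleosomes, and Cenpt, which recruits NDC80. Over both lines their changes ran from 0.80 for Cenpc1 to 1.51 for Cenpi. Cenpl rose by 1.83 ± 0.23 in LLC and 1.08 ± 0.23 in colon26. Cenpk, lowest on colon26 low array 2, rose by 1.36 ± 0.32 and 1.65 ± 0.32. Cenpm and Cenpt rose in LLC, by 1.44 ± 0.28 and 1.20 ± 0.19, but their changes of 0.92 ± 0.28 and 0.42 ± 0.19 in colon26 did not pass the limma test (adjusted p = 0.121 and 0.3).

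**Figure D3:**
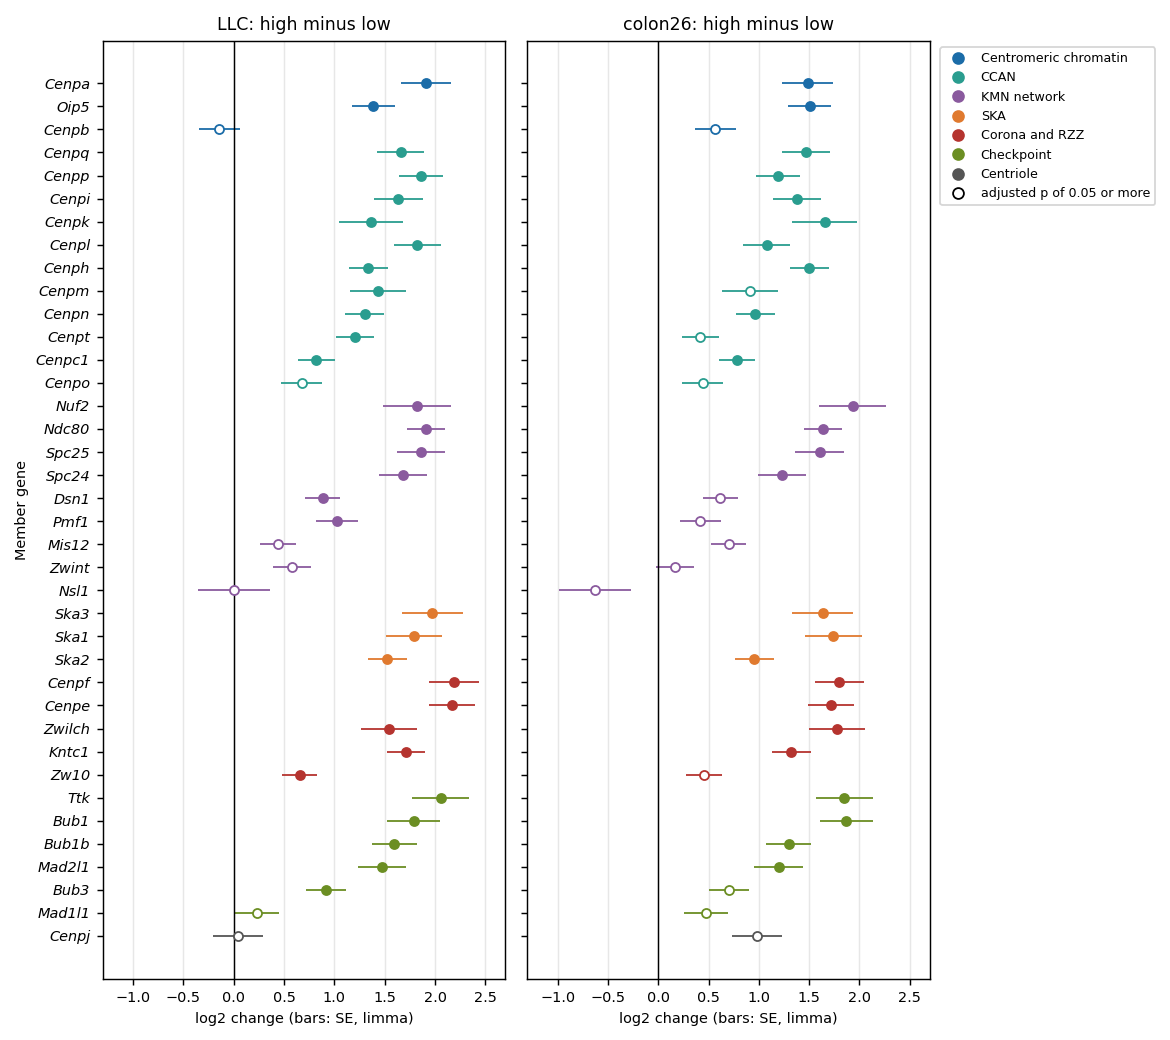
Log2 change from EGFP-low to EGFP-high (horizontal axes) of each member (rows, by role) in LLC on the left and colon26 on the right, with the standard error of the limma fit as bars. Filled points passed the adjusted p of 0.05 and open points did not; filled points number 31 in LLC and 25 in colon26, and the open ones include Cenpb, Nsl1, Zwint, Mad1l1 and Cenpj in both.

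The genes of the KMN network are given by subcomplex, and differences between subcomplexes were not tested. All 4 genes of the NDC80 complex, the rod that holds the microtubule (Ndc80, Nuf2, Spc24 and Spc25), rose more than 2-fold in both lines. Of the 4 genes of the MIS12 complex, which joins that rod to the inner kinetochore, Dsn1 and Pmf1 rose in LLC, and Mis12 passed only over both lines. Nsl1, and Zwint, which binds KNL1, passed in none of the 3 comparisons. In all, 6 of the 9 genes rose in LLC and 4 in colon26, and 7 rose over both lines.

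Nuf2 had the largest change of this network over both lines. Its signal was 8.01 and 7.40 on the LLC low arrays and 9.63 and 9.43 on the LLC high arrays, against 7.49 and 5.72 and then 8.52 and 8.55 in colon26. Colon26 low array 2 was the lowest of the 8 by more than 1 log2 unit, and the groups did not overlap. The rise was 1.82 ± 0.34 in LLC and 1.93 ± 0.34 in colon26 (limma adjusted p = 0.00686 and 0.00986).

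Ndc80, the partner of Nuf2 at the microtubule end of the rod, gave 7.59 and 6.63 on the LLC low arrays and 9.40 and 8.64 on the LLC high arrays, against 7.79 and 6.68 and then 9.25 and 8.50 in colon26. Array 1 was the higher one in each group, and the high groups lay above the low groups in both lines. It rose by 1.91 ± 0.19 in LLC and 1.64 ± 0.19 in colon26 (limma adjusted p = 0.000335 and 0.00103), and its adjusted p over both lines, 3.97e-05, was the lowest of the members. Spc25 and Spc24, which form the other end of the rod, rose by 1.73 and 1.46 over both lines.

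For Nsl1, a MIS12 complex subunit, the probe set used gave 6.20 and 5.70 on the LLC low arrays and 6.00 and 5.91 on the LLC high arrays, against 5.73 and 7.23 and then 6.08 and 5.63 in colon26. Colon26 low array 2 stood above the other 7 arrays by more than 1 log2 unit, and the groups overlapped. The change was 0.00 ± 0.36 in LLC and −0.63 ± 0.36 in colon26 (limma adjusted p = 0.999 and 0.407). Another probe set of Nsl1 with a lower mean signal had a mean change of 1.48 in LLC and 0.45 in colon26, so the value of this gene depends on its probe set. Without the colon26 arrays numbered 1, Nsl1 fell by 0.80 over both lines (limma adjusted p = 0.045), the only member called lower in any fit that left out a pair.

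Mis12 changed by 0.44 ± 0.18 in LLC and 0.70 ± 0.18 in colon26, and by 0.57 ± 0.12 over both lines (limma adjusted p = 0.0139). Dsn1 rose by 0.88 ± 0.18 and Pmf1 by 1.02 ± 0.21 in LLC. Zwint, whose signal was 9.09 to 11.17 over the 8 arrays, changed by 0.58 ± 0.19 in LLC and 0.16 ± 0.19 in colon26 (limma adjusted p = 0.081 and 0.692).

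The 3 genes of the SKA complex, which helps NDC80 stay on shrinking microtubule ends, all rose in both lines, with medians of 1.79 in LLC and 1.63 in colon26. Ska3 gave 5.47 and 4.86 on the LLC low arrays and 6.96 and 7.31 on the LLC high arrays, against 5.04 and 4.50 and then 6.05 and 6.76 in colon26. Its low arrays were near or under the filter value of 5, and the groups did not overlap. It rose by 1.97 ± 0.30 in LLC and 1.63 ± 0.30 in colon26 (limma adjusted p = 0.00256 and 0.0131).

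Ska1 gave 6.76 and 6.46 on the LLC low arrays and 8.51 and 8.29 on the LLC high arrays, against 7.26 and 5.70 and then 8.30 and 8.14 in colon26. The 4 high arrays lay between 8.14 and 8.51, and all 4 low arrays below them. The rise was 1.79 ± 0.28 in LLC and 1.74 ± 0.28 in colon26 (limma adjusted p = 0.0028 and 0.00668). On a lower-signal probe set of Ska1 that also passed the filter the mean change was 0.85 in LLC and 0.56 in colon26.

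Ska2 had the smallest change of the complex, with 8.51 and 8.57 on the LLC low arrays and 10.02 and 10.11 on the LLC high arrays, against 8.71 and 8.25 and then 9.40 and 9.47 in colon26. The groups did not overlap in either line, and the LLC high arrays were the highest of the 8. Its rise was 1.52 ± 0.19 in LLC and 0.95 ± 0.19 in colon26 (limma adjusted p = 0.00104 and 0.021). A lower-signal probe set of Ska2 that also passed the filter had the other order, with 0.87 in LLC and 1.55 in colon26.

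The fibrous corona is the outermost layer of an unattached kinetochore. Its 5 members all rose in LLC, 4 of them in colon26. Cenpf, a very large coiled-coil protein of the corona, had the largest change of all 38 members over both lines. Its signal was 8.88 and 7.92 on the LLC low arrays and 10.86 and 10.32 on the LLC high arrays, against 8.83 and 7.13 and then 10.11 and 9.44 in colon26. Low array 2 was the lowest in each line, and the groups did not overlap. It rose 4.56-fold in LLC (2.19 ± 0.25, limma adjusted p = 0.000579) and 3.48-fold in colon26 (1.80 ± 0.25, adjusted p = 0.00297). Its other probe sets that passed the filter changed less, by 1.42 and 1.03 in LLC and by 0.13 and 0.71 in colon26.

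Cenpe, the kinesin that carries chromosomes towards the spindle equator, gave 8.26 and 7.77 on the LLC low arrays and 10.29 and 10.07 on the LLC high arrays, against 8.43 and 7.69 and then 9.70 and 9.85 in colon26. The high groups lay more than 1 log2 unit above the low groups in both lines. It rose 4.49-fold in LLC (2.17 ± 0.23, limma adjusted p = 0.000431) and 3.28-fold in colon26 (1.71 ± 0.23, adjusted p = 0.00247).

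The ROD-ZW10-Zwilch (RZZ) complex brings dynein and the MAD1-MAD2 pair to the corona, and its genes differed in size of change. Kntc1, which encodes ROD, rose by 1.71 ± 0.19 in LLC and 1.32 ± 0.19 in colon26, and Zwilch by 1.54 ± 0.28 and 1.78 ± 0.28. Zw10, which also acts in membrane traffic between divisions, had the smallest change of the corona genes, with 8.40 and 8.12 on the LLC low arrays and 9.07 and 8.76 on the LLC high arrays, against 8.75 and 8.33 and then 9.15 and 8.85 in colon26. The groups did not overlap, although the distances were small. Zw10 rose by 0.66 ± 0.18 in LLC (limma adjusted p = 0.0388), and its 0.46 ± 0.18 in colon26 did not pass (adjusted p = 0.228). Another probe set of Zw10 that passed the filter, with a lower mean signal, had a mean change of −0.22 in LLC and 0.22 in colon26.

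Of the 6 checkpoint genes 5 rose in LLC and 4 in colon26, and 5 rose over both lines. Ttk, the kinase (MPS1) that starts checkpoint signalling at unattached kinetochores, had the largest change. Its signal was 6.79 and 5.94 on the LLC low arrays and 8.66 and 8.19 on the LLC high arrays, against 8.05 and 6.26 and then 9.20 and 8.81 in colon26. Low array 2 was again the lowest in each line, and the groups did not overlap. It rose 4.16-fold in LLC (2.06 ± 0.28, limma adjusted p = 0.00152) and 3.6-fold in colon26 (1.85 ± 0.28, adjusted p = 0.00537). On a lower-signal probe set of Ttk that also passed the filter the mean change was 0.52 in LLC and 0.47 in colon26.

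Bub1, a kinase that binds phosphorylated KNL1 and gathers further checkpoint proteins, gave 9.54 and 8.44 on the LLC low arrays and 10.90 and 10.65 on the LLC high arrays, against 9.54 and 8.50 and then 10.94 and 10.84 in colon26. The 4 high arrays lay between 10.65 and 10.94, more than 1 log2 unit above every low array. The rise was 1.79 ± 0.26 in LLC and 1.87 ± 0.26 in colon26 (limma adjusted p = 0.00216 and 0.00344).

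Bub1b and Mad2l1, which encode BUBR1 and MAD2 of the inhibitor of the anaphase promoting complex, rose by 1.45 ± 0.16 and 1.33 ± 0.17 over both lines. Bub3, which encodes their partner and the partner of BUB1, rose by 0.92 ± 0.20 in LLC, and its 0.71 ± 0.20 in colon26 did not pass the limma test (adjusted p = 0.0919).

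Mad1l1, which encodes the kinetochore anchor of MAD2, gave 4.98 and 5.72 on the LLC low arrays and 4.81 and 6.36 on the LLC high arrays, against 4.93 and 6.40 and then 5.46 and 6.82 in colon26. Array 2 was the higher one in all 4 groups, and the high and low groups overlapped in both lines. The change was 0.23 ± 0.22 in LLC and 0.47 ± 0.22 in colon26 (limma adjusted p = 0.568 and 0.308). MAD1 and MAD2 work as a complex, and only the gene of MAD2 rose here; the difference between the genes was not tested.

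Cenpj carries a Cenp name but encodes CPAP, which sets the length of centrioles. Its signal was 7.001 and 5.80 on the LLC low arrays and 7.09 and 5.78 on the LLC high arrays, against 6.63 and 4.76 and then 7.04 and 6.31 in colon26. In LLC the pairs differed by 0.09 and −0.02, and the groups overlapped in both lines. The change was 0.04 ± 0.25 in LLC and 0.98 ± 0.25 in colon26 (limma adjusted p = 0.956 and 0.0627).

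The sort's effect on the members was compared between the lines. The LLC change was above the colon26 change for 28 of the 38 members, beside 45.9% of all genes tested. Without colon26 pair 1 the members' median difference went from 0.26 to −0.06, and 12 of the 38 members changed sign. The limma test of the difference itself called 0 members, beside 1.41% of all genes tested. The share of all genes with an unadjusted p under 0.05 is not given here, and 4 members had one. These were Cenpt (LLC minus colon26 change 0.78, 95% interval 0.19 to 1.37, adjusted p = 0.228), Cenpl (0.75, 0.01 to 1.48, adjusted p = 0.343), Cenpb (−0.71, −1.35 to −0.07, adjusted p = 0.309) and Cenpj (−0.94, −1.73 to −0.16, adjusted p = 0.272), chosen after their values were seen. For Bub1 the interval was −0.91 to 0.75 and for Cenpf −0.38 to 1.16, so differences up to about these sizes cannot be told from none. Across the 38 members the changes in LLC and colon26 had a Pearson r of 0.81 and a Spearman rho of 0.79; genes are not independent replicates, and they share the arrays and the replicate numbers.

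The colon26 changes depended on which pair of arrays was used. The members' median change was 1.37 in LLC pair 1 and 1.61 in LLC pair 2, but 0.83 in colon26 pair 1 and 1.61 in colon26 pair 2. The change was larger in colon26 pair 2 than in pair 1 for 36 of the 38 members, beside 68.6% of all genes tested. Between the colon26 low arrays, number 2 was below number 1 by a median of 0.76 over the members. Between the colon26 high arrays this median was 0.04. Without colon26 pair 2 the members' median change was 0.83 in colon26 and 1.22 over both lines, against 1.21 and 1.45 with all arrays. Over all genes tested the medians in that fit were 0.02 and 0.03. The members' calls in colon26 were lost in it, as were those of all other genes that rose there. Of the 33 members that rose over both lines, 24 passed in each of the 4 fits that left out a pair.

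**Figure D4:**
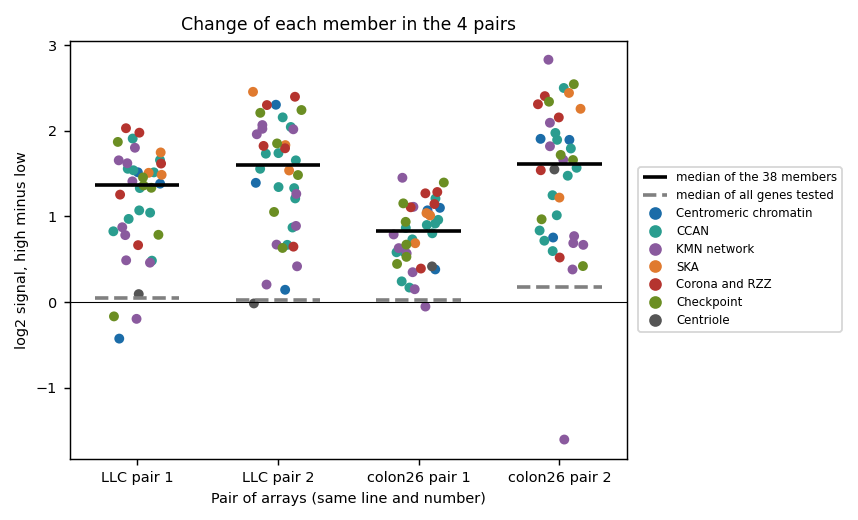
Log2 signal of the high minus the low array (vertical axis) of each member (points, coloured by role) in the 4 pairs of arrays. Black lines are the members' medians, 1.37, 1.61, 0.83 and 1.61 from left to right, and grey dashed lines the medians of all genes tested, 0.05, 0.03, 0.02 and 0.18.

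Replicate numbers also moved single members, beyond the sort for some. On average over the 4 groups, array 2 was above array 1 by 3.56 for Cenpb, 1.75 for Cenpm and 1.28 for Mad1l1. For Cenpk, Cenpp, Kntc1 and Cenpj the average was −1.53, −1.32, −1.32 and −1.28. The number moved 6 members by more than the sort did, 7 members were higher on array 2 in all 4 groups and 17 were lower in all 4. These differences moved with the 3' to 5' signal of the control transcripts given above; its part in them was not tested.

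LLC and colon26 cells of the same sort were compared next. In EGFP-high cells 11 members were higher and 1 lower in LLC, beside 15.7% and 23.5% of all genes tested. That is 12 of 38 members, beside 39.2% in either direction. In EGFP-low cells 8 were higher and 3 lower, beside 21% and 25.2%, which is 11 of 38 members, beside 46.2%. After quantile normalization the splits were 13 and 0 in high cells and 8 and 6 in low cells. Over all genes tested they were then 2388 and 2516, and 2552 and 3318. After median centring the members' splits were 12 and 0, and 11 and 0, beside 2182 and 2148, and 3193 and 2102 over all genes. The direction of the low-cell calls thus depends on the scaling, for the members and over all genes. Medians of the members were 0.33 in high and 0.06 in low cells, beside −0.09 and −0.07 over all genes. The time under the skin and the line cannot be told apart.

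Cenpc1, Cenpo, Zwint, Zwilch and Bub1b were higher in LLC in both sorts. The share of all genes tested that were higher in both is not given here, so this number is not set against it. Zwilch differed most, by 1.50 ± 0.30 in high cells and 1.74 ± 0.30 in low cells (limma adjusted p = 0.00508 and 0.00225). Its signal was 8.60 and 8.12 on the LLC low arrays and 9.85 and 9.95 on the LLC high arrays, against 7.16 and 6.09 and then 8.31 and 8.49 in colon26, and each LLC group lay above the colon26 group of the same sort. Zwint differed by 1.36 ± 0.18 and 0.94 ± 0.18, Cenpo by 1.31 ± 0.22 and 1.07 ± 0.22, Bub1b by 1.19 ± 0.25 and 0.89 ± 0.25 and Cenpc1 by 0.69 ± 0.17 and 0.65 ± 0.17. Among the members called in 1 sort, Cenpl was higher in LLC high cells by 1.36 ± 0.26 and Cenpk in LLC low cells by 1.21 ± 0.38. Cenpm, Cenpi and Cenpt were lower in LLC low cells, by −0.97 ± 0.31, −0.77 ± 0.25 and −0.70 ± 0.18. A call in 1 sort only does not show that the sorts differ. Without the replicate number in the fit, limma called 1 member in each sort. Over all genes tested it then called 527 higher and 853 lower in high cells, and 708 and 997 in low cells. In high cells the members' median difference was 0.44 and 0.26 without LLC high array 1 or 2, and 0.21 and 0.47 without colon26 high array 1 or 2. Over all genes tested these medians were −0.08, −0.09, −0.12 and −0.06. In low cells the members' median was 0.03 and 0.12 without LLC low array 1 or 2, and 0.30 and −0.14 without colon26 low array 1 or 2. Over all genes tested these were −0.06, −0.08, −0.003 and −0.12. Which members were called depended on the array left out, and the calls over all genes changed too.

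**Figure D5:**
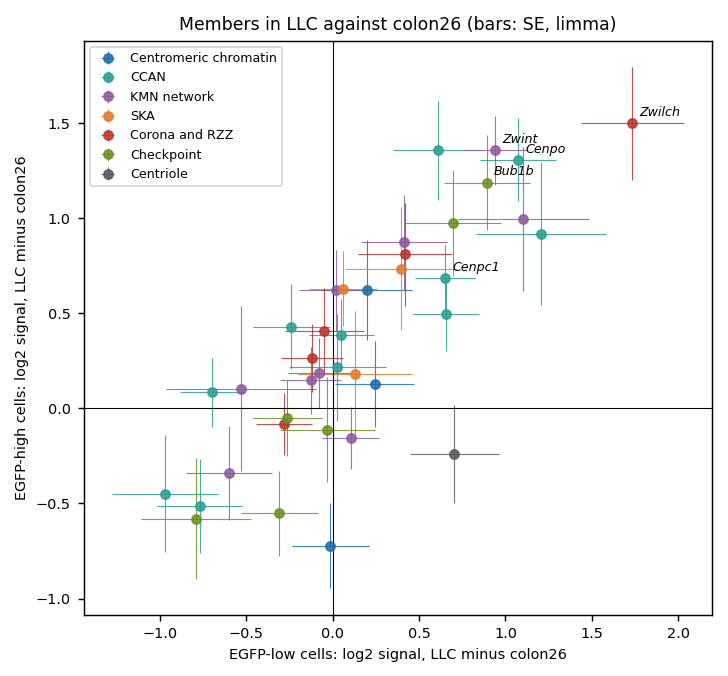
Log2 signal of LLC minus colon26 for each member in EGFP-low cells (horizontal axis) and EGFP-high cells (vertical axis), coloured by role, with the standard error of the limma fit as bars. The 5 named members passed the test in both sorts and all lie above 0 on both axes. The share of all genes that did so is not given here.

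Other genes of the same pathway were counted in the same way. Of 43 such genes listed, 40 were measured and tested. In LLC 26 rose and 1 fell, against 4.98% and 6.04% of all genes tested. In colon26 16 rose, against 2.18%, and over both lines 26 rose, against 7.47%. The medians were 0.91, 0.70 and 0.80, beside 0.04, 0.08 and 0.04 over all genes tested. The largest changes over both lines were those of Aurkb (2.28 ± 0.21), the kinase of the chromosomal passenger complex that releases faulty attachments, Sgo1 (1.79 ± 0.18), which protects cohesion at centromeres, and Plk1 (1.78 ± 0.31), a mitotic kinase. The changes closest to 0 were those of Clasp1 (0.05 ± 0.13), Clip1 (0.06 ± 0.12) and Mapre1 (0.08 ± 0.13), which encode microtubule plus-end proteins that are also at work between divisions. For size, the proliferation marker Mki67 changed by 1.54 over both lines and Pcna, the sliding clamp of replication, by 0.55.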

How the data were processed

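Biotin-labelled cRNA made from 6 ug total RNA of sorted cells was hybridised to 8 Affymetrix arrays, 2 for each of 4 groups, whose number limits the precision. The deposited values are log2 signals of 45101 probe sets, summarised by RMA per the submitters' processing notes. Software, version and options of RMA, and the set of arrays it was run on, are not given in the sources used for this text. In the colon26 samples the description field says LLC; the title, source and cell line say colon26 and were followed.

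Each gene was represented by the probe set of its symbol alone that had the highest mean signal. Of 18193 genes, the 12177 with a log2 value above 5 on at least 2 arrays were tested. Models were fitted over all of them with limma 3.58.1 in R 4.3.3, with Benjamini-Hochberg adjustment over all genes tested at 0.05. The sort was fitted in a single model of all 8 arrays, with a change for each line and with line and replicate number as a block (2 residual degrees of freedom). The spread was pooled over both lines and moderated over genes (8.25 prior degrees of freedom). Each member therefore has the same SE in LLC and colon26, which is not the spread of that line alone. The lines were compared with group means and the replicate number (3 residual degrees of freedom). Deviations from the group means of arrays with the same number correlated at 0.89 in LLC and 0.84 in colon26 over genes. Between the lines, arrays with the same number correlated at 0.74 (low arrays) and 0.84 (high arrays). The correlation within a line thus cannot show that its high and low arrays came from matched samples. The labels say no more about the pairing than the number, and the fit without it is given beside the counts. Promoter letters were searched in RefSeq windows of GRCm38.p6, and figures were drawn with matplotlib 3.10.9.

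All members are named. Values on every array are given for the members with the 2 largest changes and the smallest change over both lines in each of 7 roles. The members and all lists (roles, other pathway genes, markers of 4 cell types) were chosen with earlier results of these data known. Alternatives were no replicate block, a block shared by the lines, other filters, median centring, quantile normalization, fits of 1 line alone, trended robust moderation, the mean of all probe sets, and leaving out pairs or arrays.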

Additional observations from a re-analysis of the deposited data

Results flagged for a closer look

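In 2 pathway genes outside the 39 members the pairs of 1 line all moved against those of the other. Clip1, which encodes a microtubule plus-end protein, changed by 0.18 and 0.21 in the LLC pairs and by −0.13 and −0.03 in the colon26 pairs, a difference between the lines of 0.27 ± 0.25 (limma adjusted p = 0.644). Rsf1, which encodes a chromatin remodelling subunit, changed by −0.54 and −1.15 in the LLC pairs and by 0.06 and 0.51 in the colon26 pairs, a difference of −1.13 ± 0.30 (limma adjusted p = 0.117). Neither difference passed the limma test over all genes. With 4 pairs, some genes split in this way by chance.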

How the results depend on the processing

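Without the replicate block the pairing was left out, and limma called 0 members in LLC, 0 in colon26, 0 over both lines, and 1 in each comparison of the lines (high cells and low cells); among all genes tested it then called 0, 3 and 7 by the sort in either direction. A block shared by the lines left 16 members in colon26, and quantile normalization 6. Over all genes tested 103 and 43 rose in those fits, in place of 266. The cause was not tested. Leaving out pairs gave 22 to 29 members in LLC, 0 to 26 in colon26, 24 to 32 over both lines and 0 to 0 for the difference between lines. Leaving out arrays gave 3 to 8 in high cells and 3 to 17 in low cells for LLC against colon26. In the 100 bases before the start 5 genes in place of 16 held a CHR match, 3 in place of 13 a CHR and a CCAAT match, 2 in place of 4 an E2F match and 16 in place of 22 a CCAAT match, in a shorter window. Calls over all genes also changed in the fits that left out pairs or arrays. The other alternatives moved the counts of members called by less than 1.5 times.

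No called member changed direction. Among members not called, Nsl1 over both lines was 0.32 with the mean of its probe sets and ran from −0.80 to 0.18 without pairs. In LLC, ranges without pairs crossed 0 for Cenpb (−0.43 to 0.14), Cenpj (−0.016 to 0.093), Mad1l1 (−0.17 to 0.63) and Nsl1 (−0.20 to 0.20), and in colon26 for Nsl1 (−1.61 to 0.35) and Zwint (−0.052 to 0.38). Of the members not called between the lines, up to 4 changed sign under an alternative in high cells and up to 8 in low cells. For the LLC minus colon26 change, up to 12 did, without colon26 pair 1.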
